A study of Mus musculus with 12 samples.

Results

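The 2 arrays hybridised before poly(I:C) was added describe the starting state of dendritic cells (DC) grown from mouse bone marrow, and they were chosen by the time of 0 h in their titles, 2 of the 12 arrays of the series. The other 10 arrays follow the same cultures at 1, 3, 6, 12 and 24 h of exposure to poly(I:C), a mimic of the double-stranded RNA made by viruses, with 1 array per time in each of 2 experiments. Marrow came from femurs and tibias of C57BL/6 mice, given in the sample descriptions as 8 to 10 weeks of age in one field and 3 to 4 months in another, and female in the study's methods. It was grown for 6 days in GM-CSF at 10 ng/ml, a myeloid growth factor, and the later groups then received poly(I:C) at 2.5 µg/ml; the study's methods state higher doses of both. All groups share the GM-CSF culture and, per the methods, a magnetic selection for CD11c, the product of Itgax, so Itgax is not a finding here. The marrow of 1 mouse made all the cells of an experiment, so n = 2 at 0 h is 2 mice, and no array holds cells kept for the same hours without poly(I:C), so exposure and time in the dish cannot be told apart.

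Immature DC sample their surroundings through lectins, Fc receptors and scavenger receptors, keep most MHC class II in endosomes and lysosomes, and carry few co-stimulatory molecules. When a sensor such as TLR3 or MDA5 detects double-stranded RNA they stop sampling, export peptide-loaded MHC, turn on CD40, CD80 and CD86, exchange CCR2 and CCR1 for CCR7, and secrete type I interferon and cytokines. Cultures of marrow in GM-CSF are known to yield CD11c-positive cells with features of both DC and macrophages, and this bears on every marker described here.

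Brightness is given as MAS5.0 signal, the linear probe set intensity after each array was scaled to a trimmed mean of 500, and as a percentile, the place of a probe set among the 45037 non-control probe sets of its own array. A gene is shown by the probe set with the highest mean log2 signal over all 12 arrays. It was called bright where that probe set lay at or above the 90th percentile on both 0 h arrays, and near background where every probe set of the gene lay below the 50th on both. Of 18194 genes, 2488 (13.7%) were bright, 6609 (36.3%) were near background and 9097 lay between. The 90th percentile stood at signals of 1663 and 1654 and the array medians at 83.1 and 77.8. As a scale for silent genes, 96 probe sets of olfactory, vomeronasal and taste receptors had median signals of 17.5 and 19.0, and 86 of them (89.6%) were below the median on both arrays. Their 95th percentiles were 73.0 and 94.4. The spread between the arrays depended on brightness: the median SD of log2 signal was 0.14 above the 99th percentile, 0.16 between the 90th and the 99th, and 0.40 between the 25th and the 50th. Probe sets differ in affinity, so a dim signal places a probe set and not the amount of a transcript, and in bulk RNA fewer cells of a type and less RNA per cell cannot be told apart.

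Above the 99th percentile on both 0 h arrays lay 197 genes, among them 33 cytosolic ribosomal proteins, 14 genes of the actin list, 11 of the lysosome list, 11 of the respiratory chain and 3 of the iron and redox list. Akr1a1, an aldehyde reductase, was first on both arrays with signals of 39197 and 43602. Tmsb4x, the thymosin that holds actin monomers, gave 38372 and 40382, and Fth1, the ferritin heavy chain, gave 35604 and 38628. Psap, the precursor of the lysosomal saposins, reached 31196 and 37394. Lpl, lipoprotein lipase, reached 29357 and 33237, and Mmp12, the elastase of macrophages, reached 31759 and 33058. Ccl9 gave 30363 and 34489, and Ccl6, its close relative, gave 28869 and 36113. The 25 brightest genes also included Actg1, Actb, Tmsb10 and Vim of the cytoskeleton, Rps29, Rpl38, Tpt1 and Eef1a1 of translation, Lyz1 and Lyz2, Ctss, B2m, Alas1, Cd52, Clec4n, Anxa1 and Lgals3. The lowest percentile among them was 99.88. For 7 of the 25 the probe set name marks possible matches to related transcripts, which touches gene families such as the actins.

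Markers of DC were mostly bright, but so were several of macrophages. Of 20 DC markers 13 were bright and 2 near background, against 13.7% and 36.3% of all genes. Without Itgax, on which the cells were selected, 12 of 19 were bright. The 20 include 5 antigen presentation genes, H2-Aa, H2-Ab1, H2-Eb1, Cd74 and Cst3, all bright and also counted with MHC class II presentation. Of the rest, 2 of 5 transcription factors, 4 of 7 surface genes and 1 of 2 growth factor receptors were bright, besides Itgax. Both α and β chains of the GM-CSF receptor were bright, with Csf2ra at 10864 and 10590.2 and Csf2rb at 22629 and 27117. Id2, a repressor needed by DC, gave 19756 and 18142. Irf4, the factor of the CD11b-type DC, gave 2305 and 3219, and Sirpa, a surface marker of the same cells, gave 8032 and 8387. Cd24a (7593 and 9005) and Mgl2 (8036 and 4989.6) were bright as well. Zbtb46, a factor of conventional DC and their precursors, lay between the limits at 415 and 247, and Cd209a, which encodes DC-SIGN, was close to the silent receptors at 115 and 69.7. Flt3, the receptor for the growth factor of DC raised without GM-CSF, was near background at 29.1 and 29.6, as was Dpp4. Of 10 markers of the cross-presenting cDC1 type 1, Naaa, was bright and 3 were near background. These shares, 10% and 30%, were close to the 13.7% and 36.3% of all genes. Xcr1, their chemokine receptor, was near background at 44.3 and 5.87, and so were Itgae and Cadm1, while Batf3 stood at 1109 and 944 and Irf8 at 1105 and 1518. None of 10 markers of plasmacytoid DC was bright, and 4 were near background (40%, against 36.3% of all genes). Siglech, their defining surface receptor, gave 9.73 and 15.3.

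Of 18 macrophage markers 9 were bright, against 13.7% of all genes. Csf1r, the receptor of the macrophage growth factor M-CSF, gave 22493 and 25095, which puts it in the top 1% of probe sets beside Lyz2 (27439.9 and 30501) and Mpeg1 (16634 and 18979). Adgre1, which encodes F4/80, gave 2573 and 3406, and C1qb of complement gave 5846 and 2658. Mrc1, the mannose receptor, was bright just above the limit at 1750.4 and 2389.8. The 3 members near background were Timd4 (2.97 and 2.46), Vsig4 (48.5 and 74.6) and Apoe (44.1 and 22.7). Mertk, an uptake receptor of mature macrophages, lay between the limits at 1314 and 1143. Among 9 genes typical of GM-CSF-driven alveolar macrophages, Lpl, Fabp5 (20189 and 27961), Car4 (3488 and 7146), Chil3 (7878 and 4682) and Csf2rb were bright, whereas Pparg, their nuclear receptor, gave 45 and 169.7. Of 7 monocyte markers Ccr2 and Fn1 were bright (28.6%, against 13.7% of all genes). Within a bulk sample, cells that carry both sets of markers and a mixture of cells cannot be told apart.

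Among lists of other blood and tissue cells the bright share differed, against 13.7% of all genes. It was 21.4% for neutrophils, 22.2% for erythroid cells and megakaryocytes, 10% for B cells and 8.33% for T and NK cells. The share near background, 36.3% of all genes, differed too. It was 9 of 10 for B cells, 9 of 12 for T and NK cells and 10 of 14 for mast cells, basophils and eosinophils. For stromal and endothelial cells it was 10 of 15 and for unrelated organs 13 of 21. Closer to the share of all genes were neutrophils (6 of 14, 42.9%), erythroid cells and megakaryocytes (3 of 9, 33.3%) and stem cells (4 of 9, 44.4%). All of Cd79a, Cd79b, Ms4a1 and Pax5 of B cells were near background. Blnk, an adaptor of the B cell receptor, was the B cell gene that was bright, at 3038 and 3757. Cd3e, Cd3d and Cd3g of T cells were near background, and Il7r alone of 12 T and NK cell genes was bright, at 8890.4 and 11366. Of 14 neutrophil markers 6 were near background, including Elane (60.6 and 40.2), Ltf (30.1 and 44.6) and Cxcr2 (12.7 and 20.5). Mmp8 (16988 and 23443), Mmp9 (2887 and 4189) and S100a8 (2529.9 and 2303) were bright, while the partner of S100a8, S100a9, gave 87.1 and 9.99. The platelet chemokines Pf4 (18062 and 20894) and Ppbp (16615 and 15996) were bright, but the platelet receptor gene Gp9 was near background at 16.5 and 21.9. No mast cell, basophil or eosinophil gene (14), no stem cell gene (9), no stromal or endothelial gene (15) and no gene of unrelated organs (21) was bright; Fcer1a, Cd34, Col1a1 and Alb were near background. The part of such cells in the levels described here was not tested.

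**Figure D1:**
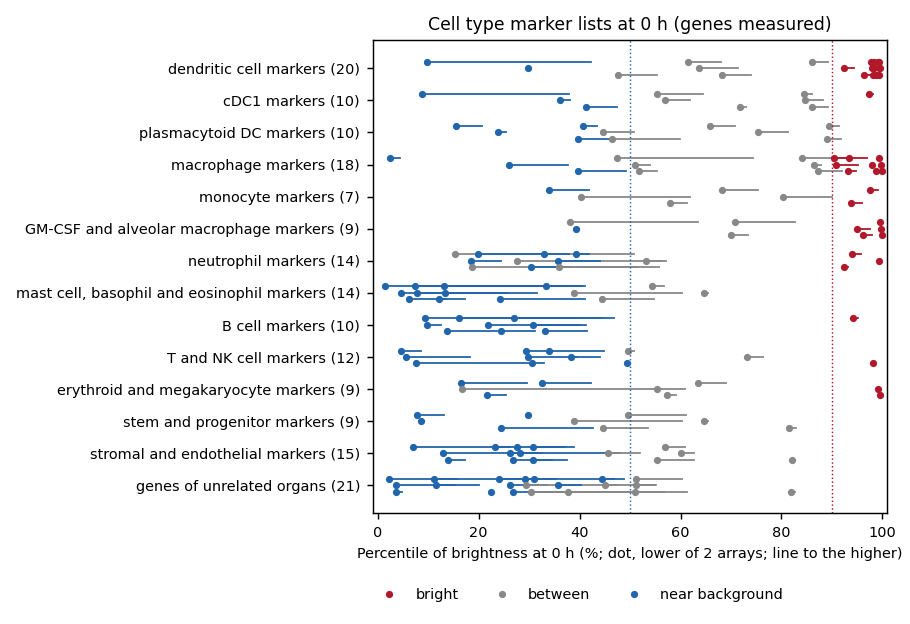
Percentile of brightness at 0 h for each measured gene of 14 cell type marker lists; the dot is the lower of the 2 arrays, the line runs to the higher, and dotted lines mark the limits at 50 and 90. A grey gene left of 50 has another array or probe set above that limit. Red points crowd the right edge for DC, macrophage and GM-CSF-linked markers. Bright were 13 of 20 (Itgax included), 9 of 18 and 5 of 9 genes, against 13.7% of all genes.

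Among surface receptors for uptake, 10 of 20 C-type lectins, 6 of 12 Fc and complement receptors and 7 of 18 scavenger and apoptotic cell receptors were bright, against 13.7% of all genes. C-type lectin receptors bind sugars of microbes and dying cells. Clec4n, which encodes Dectin-2, gave 28651 and 32793, and Clec7a, Dectin-1, gave 22990.4 and 26075. Clec4d (15010.0 and 17476) and Clec4e, Mincle (10995 and 9369.8), were bright too. None of the DC-SIGN family was bright: Cd209b, Cd209d and Cd209e were near background, and Cd209c gave 99.2 and 90.1. Ly75, or DEC-205, gave 388 and 329. The inhibitory Fcgr2b (16570.1 and 19252) and the activating Fcgr3 (14615 and 17057) with its signalling chain Fcer1g (16078 and 22762) stood in the top 1%, whereas the high-affinity Fcgr1 gave 2189.5 and 1225 and Fcgr4 gave 47.8 and 149. Itgb2 (23259.8 and 24953) and Itgam (7860.1 and 9361), the chains of complement receptor 3, were bright. Of the scavenger and apoptotic cell receptors, Cd36 (28253 and 22862), Msr1 (12098 and 11950.2), Cd68, Olr1, Lrp1, Scarb2 and Axl (7867 and 4683) were bright.

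Of 15 chemokine receptors 2 were bright and 7 near background, 13.3% and 46.7% against 13.7% and 36.3% of all genes, so the bright share is that of the arrays as a whole. Ccr1 gave 9864 and 12264 and Ccr2, the receptor that brings monocyte-derived cells into tissue, gave 4353 and 2885. Ccr7, which guides mature DC to lymph nodes, gave 272 and 149, above the 95th percentile of the silent receptors and below the bright limit on both arrays. Ccr3, Ccr4, Ccr8, Ccr9, Cxcr2, Cxcr5 and Xcr1 were near background. Of 25 growth factor and cytokine receptors 11 were bright, among them the interferon receptor chains Ifnar1 (2018 and 1844) and Ifnar2 (2586 and 4056), the TNF receptors Tnfrsf1a and Tnfrsf1b, Tgfbr1 and Il10rb. Il1rn, which encodes the soluble antagonist of interleukin-1 and not a receptor, gave 17892 and 20530.5. Of 20 integrin and adhesion genes 12 were bright, including Cd44, Cd9, Cd53 and Icam1 (5582 and 4296), and Pecam1 was near background at 11 and 12.5.

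Of 21 genes of MHC class II presentation 13 were bright, against 13.7% of all genes. Those that were not bright included the activator Ciita and the inhibitor chains. The class II chains H2-Aa (26419.7 and 17143), H2-Ab1 (14508 and 9261) and H2-Eb1 (18114 and 10454) were in the brightest 2%, as was Cd74, the invariant chain, at 27562 and 23216. H2-Eb2 was near background at 61.6 and 62.6. H2-DMa, a chain of the molecule that edits the bound peptide, gave 7084 and 7876, while a partner chain, H2-DMb2, lay between the limits. The chains of the inhibitor of this editor, H2-Oa (274 and 198) and H2-Ob (104 and 53.6), were not bright. Ciita, the master activator of class II genes, stood at 347 and 172, between the limits, and its partners Rfx5, Rfxap and Rfxank did so too. The proteases and inhibitors that process antigen, Ctss (26913 and 32679.5), Ctsb, Ctsd, Ctsl, Lgmn, Ifi30 and Cst3, were all bright. Marchf1, the ligase that removes class II from the surface of immature DC, was bright at 5155 and 4142.

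Class II promoters are known for an X box, bound by the RFX complex, followed by a Y box, an inverted CCAAT box, and CIITA acts through both. The stretches that hold them are shown for a pair of bright class II genes and for 2 that were not bright, to show that the same boxes precede genes of unlike brightness. They come from the RefSeq promoter table (build GRCm38.p6), read 5′ to 3′ on the strand of the gene, with the X box core (CNNGCAAC) and the Y box (CTGATTGG) in capitals. They lie at chr17:34287862-34287912 on the minus strand for H2-Aa and on the plus strand at chr17:34305768-34305817 for H2-Eb1, chr17:34092295-34092345 for H2-Oa and chr17:34325535-34325584 for H2-Eb2.
H2-Aa: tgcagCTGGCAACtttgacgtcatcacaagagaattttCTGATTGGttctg
H2-Eb1: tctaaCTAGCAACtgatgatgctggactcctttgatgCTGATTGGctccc
H2-Oa: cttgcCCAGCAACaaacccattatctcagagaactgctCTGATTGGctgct
H2-Eb2: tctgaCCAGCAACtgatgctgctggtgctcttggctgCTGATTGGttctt
The start of the X box core and that of the Y box were 32 or 33 bases apart in each. Over the 250 bases before the start, an X box core up to 60 bases upstream of a Y box on the strand of the gene was found in 4 of the 16 members with an entry and in 19 of 27025 genes (0.0703%). Searched on both strands, the Y box alone was in 4.43% of genes and the X box core alone in 10.5%. H2-Ab1 and Cd74 had no entry. The motifs were chosen after the sequences had been seen, and a match is a description of letters and not of binding.

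Genes of MHC class I presentation were bright in 10 of 16 cases and none was near background, against 13.7% and 36.3% of all genes. The heavy chains H2-K1 (15604 and 20729) and H2-D1 (19268 and 20829.6) and their light chain B2m (28696 and 30688) were in the top 1%. The loading chaperones Tapbp, Calr, Canx and Pdia3 were bright, at 9048 and 9155 for Tapbp. The peptide transporter was not bright, with Tap1 at 1015 and 764 and Tap2 at 894 and 941, and neither was Nlrc5, the class I activator, at 643 and 330.5. Of the immunoproteasome, Psmb8 (4116 and 5281) and Psmb10 were bright and Psmb9 lay at the limit with 1326 and 1677.

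Of 17 co-stimulatory and maturation genes 13 lay between the limits. Bright were 3 (17.6%, against 13.7% of all genes), and 1 was near background (5.88%, against 36.3%). Cd86 gave 1139 and 933, Cd80 gave 368 and 429 and Cd40 gave 336 and 152. Cd83 stood at 451 and 263 and Fscn1, the actin bundler of mature DC, at 741 and 225. Cd274, which encodes the checkpoint ligand PD-L1, was bright at 2683 and 4349, as were Birc3 and Marcksl1. Cd70 alone was near background, at 39.9 and 13.5. All the others were above the 95th percentile of the silent receptors on both arrays.

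Of 27 cytokine genes 6 were bright and 14 near background, 22.2% and 51.9% against 13.7% and 36.3% of all genes. Tnf (3221 and 2715) and Il1b (2912 and 2783), the first cytokines of inflammation, were bright before poly(I:C). So were Tgfb1 (8879 and 8702), Csf1 (2773 and 2627), Igf1 (1844 and 2514) and Il1rn, whose signals are given with the receptors. Il6 (49.9 and 5.23), Il12b (50.2 and 50.5), Il12a (57 and 56.1), Il23a (9.86 and 13.1), Il10 (26.3 and 18) and Ifnb1 (32.6 and 48.4) were near background. Il1a lay at the limit with 1499 and 2023. Csf2, the gene of the growth factor supplied to the culture, was near background at 7.62 and 10.4.

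Chemokines were bright in 11 of 22 cases, against 13.7% of all genes. Besides Ccl9 and Ccl6, the T cell attractants Ccl17 (31198 and 24964) and Ccl22 (10207 and 7223) and the neutrophil attractant Cxcl3 (22301 and 17425) were bright, and so were the monocyte attractants Ccl3 (16705 and 24609.6), Ccl4 (5924 and 9699.8) and Ccl2 (8184 and 14418). Of the chemokines driven by interferon, Cxcl10 gave 96.8 and 61.3, within the range of the silent receptors, and Cxcl9 (7.06 and 6.78) and Cxcl11 (40.1 and 68.4) were near background. Ccl5 lay between at 1129 and 921. Ccl20, the ligand of Ccr6, was near background at 7.90 and 5.79.

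**Figure D2:**
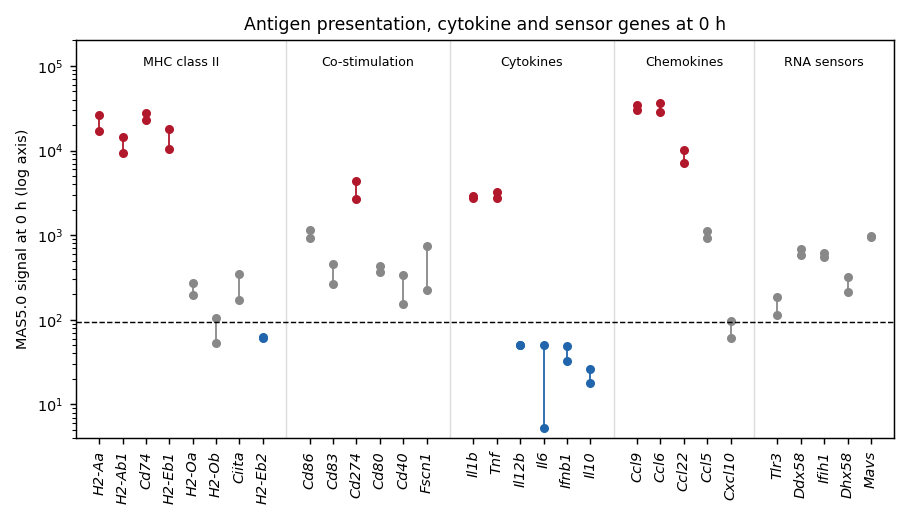
MAS5.0 signal (log axis) of 30 genes of antigen presentation, co-stimulation, cytokines, chemokines and RNA sensing on both 0 h arrays; each pair of joined points is 1 gene, red bright, grey between and blue near background. The dashed line is the higher of the 2 values of the 95th percentile of the silent receptors, 94.4; Il6, Il12b, Ifnb1 and Il10 lie below it on both arrays and H2-Aa, Cd74, Ccl9 and Ccl6 lie at the top.

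The 6 sensors of double-stranded RNA all lay between the limits. The list of 13 genes also holds adaptors, kinases and transcription factors. None of the 13 was near background, against 36.3% of all genes, and 2 were bright (15.4%, against 13.7%). The bright ones were Tbk1, the kinase that activates IRF3 (4168 and 3139.8), and Tmem173, the adaptor STING (2403 and 1663). Tlr3, the endosomal receptor of poly(I:C), gave 114 and 185. The cytosolic receptors Ifih1, or MDA5, and Ddx58, or RIG-I, gave 613 and 559 and 588 and 679. The adaptors Mavs and Ticam1 stood at 966 and 948 and 326 and 266. Irf3 gave 904 and 1244 and Irf7, the interferon-inducible factor, gave 284 and 196. Of 17 Toll-like receptors and adaptors 6 were bright (35.3%, against 13.7% of all genes). They were Tlr2 (7131 and 7101), Tlr4 (2621 and 3027), Cd14, Tlr13 (3407 and 2705), Unc93b1 and Myd88. Tlr5 (27.9 and 22.7) and Tlr12 were near background, and Tlr9 gave 103 and 133.

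Interferon response genes were spread over the whole range before stimulation, with 5 of 23 bright (21.7%, against 13.7% of all genes), 2 near background and 16 between. Ifitm3, which blocks viral entry, was bright at 5071 and 6845, followed by Trim30a (3799 and 3113), Ifi35, Gbp2 (2887 and 2064) and Oas1a (2117 and 1805). Ifit1 (84.1 and 83.5), Ifit2 (123 and 44.8) and Cmpk2 (114 and 116) lay around the 95th percentile of the silent receptors, and Mx2 (6.65 and 12) and Oas2 (68 and 76.8) were near background. The promoter element of many interferon-induced genes is known as the ISRE. Its core, searched as GAAANNGAAA on both strands over the 250 bases before the start, was in 9 of the 18 members with an entry and in 3.46% of all genes. The stretches shown hold it in a dim effector gene, a dim chemokine gene and a bright class I gene, with the cores in capitals (RefSeq, GRCm38.p6). They lie on the plus strand at chr19:34640775-34640823 for Ifit1 and chr2:122147538-122147567 for B2m, and on the minus strand at chr5:92349083-92349112 for Cxcl10.
Ifit1: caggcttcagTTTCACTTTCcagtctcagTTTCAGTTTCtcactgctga
Cxcl10: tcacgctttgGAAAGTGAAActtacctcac
B2m: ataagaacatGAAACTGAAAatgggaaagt
Ifit1 carries 2 cores, both reading on the opposite strand, and the others carry 1. The core was thus present before genes at both ends of the 0 h range, and Gbp2, Oas1a and Trim30a, all bright, also held it. It was absent at both ends too, as in the bright Ifitm3 and Ifi35 and the dim Ifit2 and Cmpk2.

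Of 34 transcription factors of DC and myeloid cells 9 were bright and 3 near background, 26.5% and 8.82% against 13.7% and 36.3% of all genes. Spi1, or PU.1, the master factor of myeloid cells, gave 5593 and 5982, and Cebpb and Cebpa gave 12166 and 13102 and 2704 and 2752. Zeb2 (3698 and 3191), Klf4 (1922 and 3010.1), Stat3, Etv3, Irf4 and Id2 were bright as well. Stat5a, which acts below the GM-CSF receptor, gave 1236 and 794. Gfi1, Spib and Myb, factors of granulocytes, lymphoid or plasmacytoid cells and progenitors, were near background, at 5.44 and 5.70 for Myb.

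Lysosomal genes were bright in 24 of 30 cases, against 13.7% of all genes, and 11 lysosomal genes stood above the 99th percentile on both arrays. Beside Psap these were led by the cathepsins Ctsb (26211 and 32676), Ctss and Ctsz (25497 and 30202). The membrane proteins Lamp1 and Lamp2 and the proton pump subunits Atp6v0d1, Atp6v0d2, Atp6v1a and Atp6v1b2 were bright. Of the regulators, Mitf was bright at 5482 and 4965 and Tfeb gave 590.4 and 458. The NADPH oxidase, which makes superoxide in phagosomes, was represented by Cybb (23722 and 27260.4), Cyba (25293 and 31766), Ncf1, Ncf4 and Rac2, all bright. Nos2, the inducible nitric oxide synthase, was near background at 5.66 and 9.95, and so was Camp, an antimicrobial peptide.

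Most genes of energy metabolism were bright at 0 h, against 13.7% of all genes. Of 66 subunits of the respiratory chain and ATP synthase 62 were bright, and of 21 genes of the tricarboxylic acid cycle 18 were, against 13 of 23 in glycolysis and 5 of 6 in the pentose phosphate pathway. The glycolytic enzymes Pgk1 (16965 and 27862), Ldha (16519 and 23046), Aldoa and Pkm (13419.8 and 16089.8) and the glucose transporter Slc2a1 (10212 and 10143) were bright, while Slc2a3 gave 178 and 136. Hif1a, the regulator of glycolysis under stress, was bright at 9468 and 10774. Acod1, which makes itaconate from a cycle intermediate and is known as a gene of activated macrophages, was already bright at 16539 and 10573. Tkt (20744 and 22541) and Pgd (20268 and 22594) led the pentose phosphate pathway.

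Of 23 genes of sterol and lipid metabolism 11 were bright, several of them for uptake, against 13.7% of all genes. Lpl, Cd36, Fabp5, Plin2 (7393 and 12312) and the cholesterol exporter Abca1 (5214 and 3569.8) were bright. Fasn, fatty acid synthase, gave 855 and 544, and Scd1 gave 277 and 351, yet Scd2, its isoform, gave 12129.8 and 15099. Arg1, arginase, was classed as between because its signals of 267 and 2307 fell on either side of the bright limit. Ido1, which degrades tryptophan, was near background at 54.3 and 30.1. Alox5ap (12298 and 16180.5) and Lta4h (5159 and 5149.9) of leukotriene synthesis and Tbxas1 of thromboxane synthesis were bright, but Ptgs2, the inducible cyclooxygenase, gave 90.5 and 26.5. Of 19 iron and redox genes 15 were bright, among them Txn1 (26292 and 26676), Gpx1 (19976 and 24232) and Hmox1 (7523 and 10425). Of 44 measured ribosomal proteins 36 were bright; Rps16, at 1.40 and 85.7, shows how far a probe set can sit from its family. Actin genes were bright in 26 of 29 cases.

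Cell cycle genes were measurable at 0 h, with 5 of 30 bright (16.7%, against 13.7% of all genes) and Tyms alone near background. Pcna gave 17159 and 20791, Mcm6 gave 2116 and 2377 and Rrm2, the ribonucleotide reductase subunit, gave 1746 and 2127. The mitosis genes Mki67 (693 and 818), Top2a (831 and 863) and Cdk1 (1249.9 and 1714) lay between the limits. Cdkn1a, the inhibitor p21, was bright at 4899 and 5824.

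**Figure D3:**
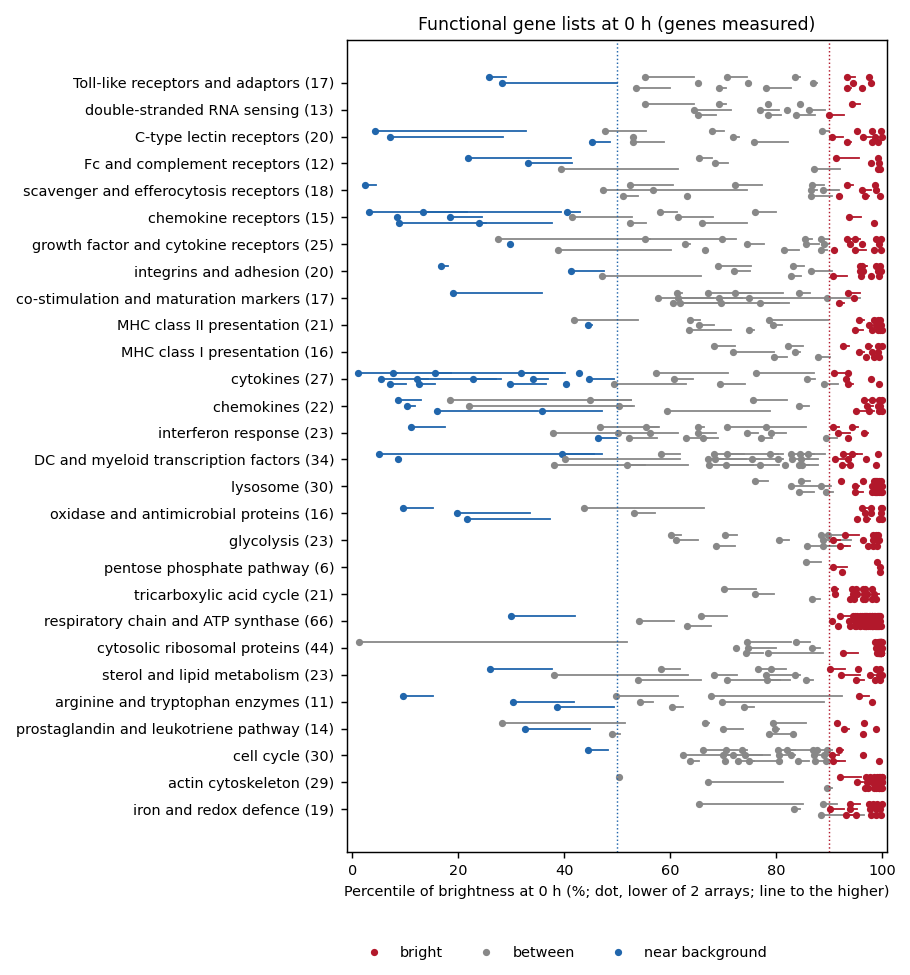
Percentile of brightness at 0 h for each measured gene of 28 functional lists; the dot is the lower of the 2 arrays, the line runs to the higher, and dotted lines mark the limits at 50 and 90. Genes of the respiratory chain, actin, ribosome and lysosome gather above 90 (62 of 66, 26 of 29, 36 of 44 and 24 of 30), while chemokine receptors (2 of 15) and cytokines (6 of 27) spread over the whole range, with bright shares of 13.3% and 22.2% against 13.7% of all genes.

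To place these levels against the same cultures after poly(I:C), the 0 h arrays were compared with the mean of the 1, 3, 6, 12 and 24 h arrays in limma, on log2 of the signal plus 16 with the experiment as a block. Of 22519 probe sets, 1106 (4.91%) were higher and 1007 (4.47%) lower at 0 h at a Benjamini-Hochberg adjusted p of 0.05; after centring each array on its median these counts were 663 and 959. Among 10984 genes, 599 (5.45%) were higher and 585 (5.33%) lower, and the median difference over all of them was 0.12. Without the first or the second 0 h array, 20 and 50 probe sets were called higher and 293 and 437 lower. Without the first or second 24 h array the counts rose to 4060 and 2940 higher and 1916 and 1739 lower. Without a 1 h array 635 and 616 were called higher, without a 3 h array 495 and 604, and without the first 6 h array 531. With no replicate block 150 were called higher and 390 lower. Each gene named in the next 2 paragraphs kept its call in every alternative that tested it unless its exceptions, or their number, are given.

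The interferon response was the list set furthest below its later level. Over all genes tested, 5.33% were called lower at 0 h and 5.45% higher. All 23 genes were lower at 0 h, with a median log2 difference of -3.89, and all 23 remained so without either 0 h array or the block. Over all genes called lower at 0 h with the same sign in both experiments, in this list or not, the 10 largest differences were Cxcl10, a chemokine (-6.96, SE 0.33, limma adjusted p = 9.75e-07), Ifit2, Ifit1, Rsad2, Oasl1, Cmpk2, Ifit1bl1, Ifit3, Mx2 and Ms4a4c (-5.13). Cxcl10 signals, 96.8 and 61.3 at 0 h, ran from 1424 to 36109.5 on the later arrays, so the groups did not overlap. Rsad2 (243 and 193) at 0 h reached 54120.0 later and its groups overlapped at the lowest later signal of 233. Of 13 double-stranded RNA sensing genes 8 were lower at 0 h, but 6 with no block and 6 with no intensity trend. The median over the 13 was -1.11, and it was -0.73 and -1.48 without the first or the second 0 h array. Ifih1 differed by -3.85 and Ddx58 by -2.80 (limma adjusted p = 5.39e-07 and 8.09e-07). Tlr3 (-2.03, adjusted p = 0.00388) did not pass without the first 0 h array. Of 16 class I genes 13 were lower, but 5 and 6 without the first or the second 0 h array and 7 with no block. Tap1 differed by -2.07 (adjusted p = 2.56e-06) and Psmb9 by -1.59.

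Co-stimulatory and maturation genes were lower at 0 h in 12 of 16 cases, with a median of -1.46; 4 and 10 passed without the first or second 0 h array and 5 with no block. As the scale for each list count here, 5.33% of all genes tested were called lower at 0 h and 5.45% higher. Cd40 differed by -3.39 (SE 0.31, limma adjusted p = 8.93e-05), Cd86 by -1.67 and Cd274 by -1.67. Cd86 signals ran from 1033 to 13320.0 later, and some of its 1 h and 3 h arrays overlapped the 0 h values. Il6 (-5.06), Il12b (-3.92), Ccl5 (-3.92) and Nos2 (-3.21) were lower at 0 h too. Of 19 class II genes 2 passed, Rfx5 and H2-Oa, which are named for that count, and the median was -0.32. H2-Oa did not pass without the first 0 h array or with no block, and Rfx5 failed in 7 of 22 alternatives: without either 0 h array, either 1 h array, the second 3 h array or the first 6 h array, and with no block. H2-Aa differed by -0.36 (limma adjusted p = 0.169), which did not pass. After quantile normalization the class II median in the main comparison was -0.12. Among the 25 brightest genes at 0 h, all but Rpl38 (0.01) were also below their later mean. Examples are Actb (-0.32) and Vim (-0.35), neither called in the main fit. Whether the scaling of bright probe sets accounts for the class II median was not tested. Against the 12 and 24 h arrays alone, 12 of the 19 class II genes were lower at 0 h, with a median of -0.56. Over all probe sets that comparison called 2354 lower, against 1007 in the main one. Of 65 respiratory chain genes limma called 0 at the adjusted threshold and 3 at an unadjusted p of 0.05, with a median of 0.03. Higher at 0 h were Cdh1, the epithelial cadherin that joins DC to each other (2.12, SE 0.17, adjusted p = 2.64e-05), and Ccr2 (1.47, SE 0.14, adjusted p = 0.000136). Cdh1 signals of 4175 and 3083 at 0 h were 138 and 123 at 24 h. Pald1, a phosphatase-like protein, differed most (2.77, adjusted p = 0.00118) and did not pass without the first 0 h array. The next in size were Sla, Ctps, Polr3g, Cdca7, Nop58, Rpl12, Armcx4 and Mettl1, with differences from 2.44 to 1.73. None of these 8 passed without the first 0 h array, and each failed in 2 to 16 alternatives in all. Of 29 cell cycle genes 8 were higher and 3 lower, but at most 1 was higher without either 0 h array or with no block, and 5 without the first 1 h or the first 6 h array. Among the 8, Rrm2 (1.32) and Mcm3 (1.25) belong to DNA replication. Rrm2 did not pass without the first 0 h array or with no block, and Mcm3 did not pass without either 0 h array.

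**Figure D4:**
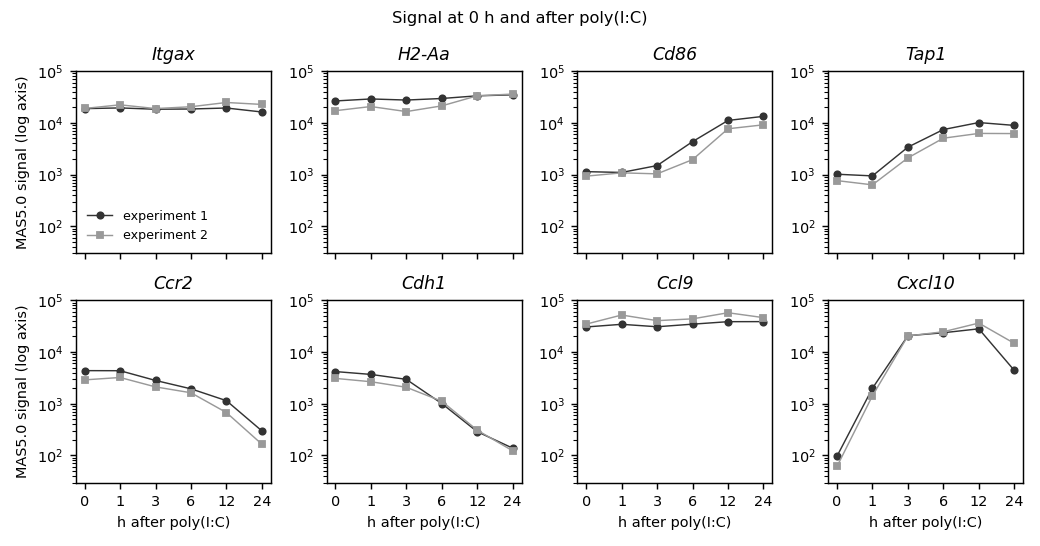
MAS5.0 signal (log axis, the same in all panels) of 8 genes over the 12 arrays, against hours after poly(I:C) (equally spaced steps from 0 to 24), 1 line per experiment. Itgax, H2-Aa and Ccl9 start and stay bright; Cd86, Tap1 and Cxcl10 start lower than they end, and Ccr2 and Cdh1 end lower than they start.

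**Figure D5:**
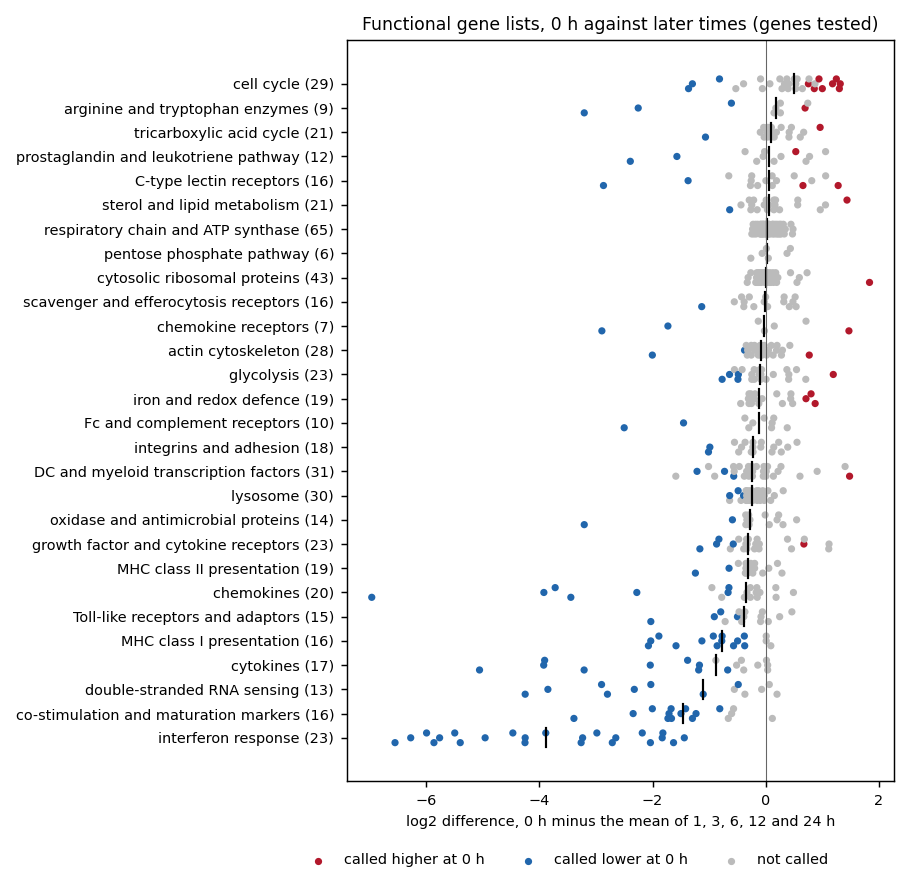
Difference of log2 (signal + 16), 0 h minus the mean of the later times, for each tested gene of 28 functional lists; black bars are list medians, red and blue mark genes called higher or lower at 0 h. The interferon response has the lowest median, -3.89, with 23 of 23 genes called lower, and the cell cycle the highest, 0.50.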

How the data were processed

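RNA of dendritic cells was labelled with biotin and hybridised to Affymetrix Mouse 430 2.0 arrays, 12 in all. The authors' core facility made the deposited intensity values with MAS5.0 on a linear scale, each array scaled to a trimmed mean of 500; the trim of 2% at each end was found by test on the values. Detection calls were not used here. Of 45101 probe sets 64 controls were left out; 34945 had 1 gene, 932 several and 9160 none, and symbols follow RefSeq (GRCm38.p6).

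Percentiles and classes were computed in Python 3.11.15 (numpy 2.4.6, pandas 2.3.3, figures in matplotlib 3.10.9). For 0 h against later times, log2 (signal + 16) was fitted in limma 3.58.1 (R 4.3.3) with time and experiment as terms and an intensity trend (5 residual and 5.24 prior degrees of freedom), on the 22519 probe sets whose mean reached the median over probe sets, with Benjamini-Hochberg adjustment. Pairing by experiment comes from the study's methods, since 1 mouse served each experiment; deviations from the time means correlated at 0.26 to 0.66 (median 0.57) over 15 pairs of times. Simulated data took the mean of each probe set per experiment and its residual spread, with independent normal noise and no differences among later times. At 0 h, 100 probe sets for each size of change were shifted, out of 22519. There the fit found 39.4% of changes of 2-fold and 82% of changes of 4-fold, and 5.65% of its calls were false. Since the real data differ in these settings, that false share does not carry over to them. The number of arrays limits the precision.

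Members and gene lists (44 lists, 831 genes, 732 measured and 99 not analysed here) were chosen with earlier results of these data known. Genes named are the 25 brightest, up to 6 of the brightest and 6 of the dimmest members and the defining members of a list, bright members of lists of other cell types, and the 10 largest called differences in each direction with 1 sign in both experiments. Alternatives covered the probe set of a gene, the limits of the classes, pseudocount, filter, scaling, trend, block, the later times used and each array left out. Files held no other samples' columns.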

Additional observations from a re-analysis of the deposited data

How the results depend on the processing

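Counts of bright genes, 2488 as reported, were within 1.5 times under another probe set rule or the percentile of the mean signal, but came to 1469 with the median percentile over a gene's probe sets, 6183 with the limit at 75 and 1186 with the limit at 95. Without either 0 h array they were 2727 to 2753. Genes near background, 6609 as reported, numbered 2225 with the limit at 25, and 7029 to 7538 without either 0 h array. Of 704 counts of bright or near background list members under an alternative, 105 moved by over 1.5 times.

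For 0 h against later times, probe sets called higher (1106 as reported) numbered 730 with no filter, 663 with arrays centred on their median, 2544 against 3 to 24 h only and 4878 against 12 and 24 h. Those called lower (1007 as reported) numbered 1526 against 3 to 24 h and 2354 against 12 and 24 h. With no replicate block, 150 were called higher and 390 lower. Leaving out 1 array at a time gave 20 to 4060 higher and 293 to 1916 lower. Other pseudocounts, the stricter filter, quantile normalization and no trend kept both counts within 1.5 times. The 70 named genes followed through the alternatives were all called in the main fit, and that choice itself favours a kept sign on the same arrays. None of their differences changed sign in any alternative that tested it (21 or 22 for each gene), and 28 of them passed in all. Of 193 losses of a call, 68 came without a 0 h array and 29 with no block. The cause of these changes was not tested. Depth here is signal over background: the arrays differed most between the 25th and 50th percentiles (median SD of log2 signal 0.40), and differences of dim genes shrink with the pseudocount.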
